A study of Mus musculus with 4 samples.

Results

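Collagen chains are the polypeptides that wind together into the helical proteins of the extracellular matrix. The chains described here are the protein-coding rows of the deposited table whose symbol is Col, a type number, the letter a and a chain number. They are 36 of the table's 18200 genes, and they divide by the known structure of their proteins into 10 fibrillar chains, 5 chains of type IV collagen, the network collagen of basement membranes, and 21 chains of other types. The rule reads the names alone and uses no measured value, although this family was picked for description with earlier results of these data known.

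The cells were ADSCs of the mouse, named in the labels by this abbreviation alone, and the series title sets them in work on IFIT1 knockdown, translational suppression, myogenic differentiation and mesenchymal stem cell therapy for myocardial infarction. Polysome RNA, the RNA on transcripts carrying several ribosomes, was sequenced in 4 libraries. All 4 are labelled with the genotype WT, the wild type. A pair of libraries, scrambled 1 and scrambled 2, came from cells treated with a scrambled control, and another pair, knockdown 1 and knockdown 2, from cells treated for IFIT1 knockdown, which the design text gives as sh-Ifit1. Replicate 1 of each group was labelled batch 1 and replicate 2 batch 2. The age, strain and sex of the animals, the number of animals or clones and the promoter driving the hairpin were not stated in the sources used. Nothing says that the libraries of a group came from separate cultures, so the p-values describe the spread among these 4 libraries alone, which may be technical. No total RNA library was analysed, so a difference in the amount of a transcript and a difference in how much of it was on polysomes cannot be told apart, and neither can fewer cells of a type and less RNA per cell.

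In fibrillar collagens (types I, II, III, V, XI, XXVII) long uninterrupted helices pack side by side into fibrils. Type I, made of chains encoded by Col1a1 and Col1a2, is the main collagen of bone, tendon and scar, type III joins it in soft and healing tissue, and type V sits inside type I fibrils and limits their width. Type IV chains form sheets under epithelia and around muscle, fat and vessel cells, where the chains of Col4a1 and Col4a2 are the usual pair. The other types include type VI, whose beaded filaments lie around stromal cells, type VII, which anchors epithelium to the tissue below, and collagens that decorate fibrils, span membranes or build short-chain networks. Stromal cells such as those of adipose tissue are a main source of types I, III, V and VI.

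Promoter windows of 29 of the 36 genes were found in RefSeq (GRCm38.p6), each running from 250 bases before to 50 bases after the gene's start, in 31 windows. The windows of 4 genes are shown first, because their genes had the most extreme or most contrasting differences described below, and in them capitals mark matches on either strand to the TATA box in the form TATAAA, to the CCAAT box in the form of those 5 letters, and to the GC box in the form GGGCGG. All are written 5′ to 3′ on the gene's strand. Col1a2 lies at chr6:4505368-4505667 on the plus strand, Col7a1 at chr9:108953336-108953635 on the plus strand, Col3a1 at chr1:45311288-45311587 on the plus strand and Col5a3 at chr9:20815018-20815317 on the minus strand.
Col1a2: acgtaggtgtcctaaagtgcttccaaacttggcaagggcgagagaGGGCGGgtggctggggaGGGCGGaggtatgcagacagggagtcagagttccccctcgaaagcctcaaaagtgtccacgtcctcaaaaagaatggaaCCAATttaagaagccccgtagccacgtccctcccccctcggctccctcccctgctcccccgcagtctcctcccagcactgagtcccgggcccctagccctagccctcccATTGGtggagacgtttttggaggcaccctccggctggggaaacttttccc
Col7a1: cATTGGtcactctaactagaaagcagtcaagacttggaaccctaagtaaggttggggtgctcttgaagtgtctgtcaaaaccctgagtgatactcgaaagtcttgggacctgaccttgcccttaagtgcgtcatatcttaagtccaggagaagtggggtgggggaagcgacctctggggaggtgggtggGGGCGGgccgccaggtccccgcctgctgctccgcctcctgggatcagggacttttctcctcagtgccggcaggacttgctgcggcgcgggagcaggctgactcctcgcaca
Col3a1: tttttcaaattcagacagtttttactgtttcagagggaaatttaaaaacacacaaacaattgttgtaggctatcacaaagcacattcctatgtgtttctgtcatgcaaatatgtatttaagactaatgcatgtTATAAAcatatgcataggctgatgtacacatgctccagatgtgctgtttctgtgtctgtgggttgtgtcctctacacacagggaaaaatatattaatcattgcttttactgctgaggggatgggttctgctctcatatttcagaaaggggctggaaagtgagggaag
Col5a3: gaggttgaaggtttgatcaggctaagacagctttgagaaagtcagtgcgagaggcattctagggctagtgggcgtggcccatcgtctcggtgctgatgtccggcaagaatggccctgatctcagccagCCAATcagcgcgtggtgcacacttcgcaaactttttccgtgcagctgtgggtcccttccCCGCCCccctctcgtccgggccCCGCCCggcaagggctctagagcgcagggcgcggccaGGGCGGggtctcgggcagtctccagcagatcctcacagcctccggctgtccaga
The Col3a1 window was the poorest of these in G and C bases, at 37.7%, against 61.0% for Col1a2, 58.7% for Col7a1 and 63.3% for Col5a3. It held 1 TATA box and no GC box, while the windows of Col1a2, Col7a1 and Col5a3 held 2, 1 and 3 GC boxes and no TATA box. These are matches of letters anywhere in the window, whatever their distance from the gene's start.

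Col4a1 and Col4a2, the usual type IV pair, stand head to head and share 1 promoter region, which is shown because their levels are compared below. Their windows lie at chr8:11312777-11313076 on the minus strand for Col4a1 and chr8:11312555-11312854 on the plus strand for Col4a2. Capitals mark the 78 bases that both windows hold, each the reverse complement of the other.
Col4a1: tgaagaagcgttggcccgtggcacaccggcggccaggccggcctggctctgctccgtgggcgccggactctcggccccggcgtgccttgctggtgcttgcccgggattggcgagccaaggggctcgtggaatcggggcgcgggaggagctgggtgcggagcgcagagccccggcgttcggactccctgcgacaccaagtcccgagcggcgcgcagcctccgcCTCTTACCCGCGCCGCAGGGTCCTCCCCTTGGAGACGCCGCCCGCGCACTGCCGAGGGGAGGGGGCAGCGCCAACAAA
Col4a2: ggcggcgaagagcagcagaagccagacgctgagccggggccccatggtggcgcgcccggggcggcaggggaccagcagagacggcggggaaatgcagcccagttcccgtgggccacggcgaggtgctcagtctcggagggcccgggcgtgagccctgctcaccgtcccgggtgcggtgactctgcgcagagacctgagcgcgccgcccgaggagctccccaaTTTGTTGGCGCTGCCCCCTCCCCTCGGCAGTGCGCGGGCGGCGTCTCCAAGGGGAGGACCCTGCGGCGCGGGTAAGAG
The starts of these genes lie 21 bases apart, at 11312826 for Col4a1 and 11312805 for Col4a2. On their strands this places each start inside the other gene, so the first bases of the genes overlap. The shared bases held 1 GC box and 0 CCAAT boxes. Across all members with a window, a GC box (GGGCGG on either strand) was found in 22 of 31 windows, those of 21 of 29 genes. Of all 32851 promoter windows of this length, 35.7% held it. A CCAAT box was found in 12 of the 31 windows (12 of 29 genes), against 37.4% of all windows. A TATA box was in 3 of the 31 (Col11a2, Col17a1 and Col3a1), against 13.6%. The core of the interferon-stimulated response element, GAAA repeated after any 2 bases, was in 0 of the 31 windows, where 3.44% of all windows held it. The AP-1 motif TGANTCA was in 1 of the 31, that of Col6a1, against 7.81% of all windows.

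The values are FPKM, fragments per kilobase of gene length and per 1e6 fragments, so they can be compared between genes. Fragment totals behind them, recovered from the steps between low values, were, in units of 1e6 fragments, 32.197 and 39.104 in scrambled 1 and 2, and 39.449 and 36.193 in knockdown 1 and 2. The targeted gene went against the labels: Ifit1 stood at 1.93 and 1.91 FPKM under the scrambled label and at 13.9 and 14.8 FPKM under the knockdown label (limma adjusted p = 0.00016). Every direction below is therefore that of the libraries labelled knockdown against the libraries labelled scrambled. Transcripts of 4 Y-linked genes had 3 and 1 fragments under the scrambled label and 252 and 307 under the knockdown label, so a difference in the source of the cells and the labelled treatment cannot be told apart. Genes with a mean of at least 1 FPKM over the 4 libraries, 8750 in all, were tested with limma on log2(FPKM + 1), and a gene was called at an adjusted p below 0.05. Changes on this scale understate those of low genes. Of the tested genes 27.4% were called higher and 41.2% lower under the knockdown label, so a call is common in these data.

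The collagen RNA on polysomes was mostly type I. Col1a2 alone made up 68.6% of all collagen FPKM under the scrambled label and 52.4% under the knockdown label. Col1a1 followed with 13.9% and 9.76%, and then, by mean FPKM over all libraries, came Col5a2, Col7a1, Col3a1, Col6a1, Col4a2, Col4a1, Col16a1 and Col5a1. These 10 chains passed the filter, 5 of them fibrillar, 2 of type IV and 3 of other types. The remaining 26 lay below 1 FPKM, and 9 of these had fewer than 10 fragments over all 4 libraries. Of the 10 tested chains, 4 were called higher and 4 lower under the knockdown label, beside the 27.4% and 41.2% of all tested genes, and 2 did not pass. Their median log2 change was 0.06, beside -0.02 for all tested genes. Both shares are near the background, so the number of calls says little about collagens, and the order and size of the changes among the chains are what the rest describes.

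**Figure D1:**
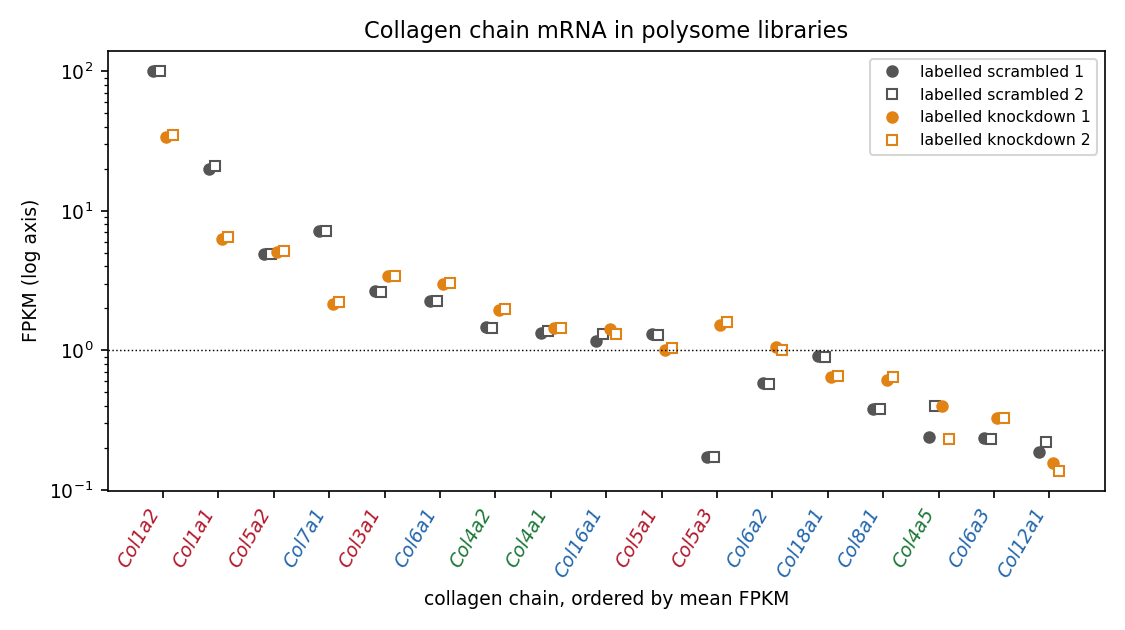
FPKM (log axis) of the 17 collagen chains with a mean of at least 0.1 FPKM, ordered by mean, with a point per library, grey for the scrambled and orange for the knockdown label, and a dotted line at 1 FPKM. Names are red for fibrillar, green for type IV and blue for other chains, and Col5a3 shows the widest gap between labels while Col4a5 has the labels mixed.

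Both chains of type I collagen fell. Col1a2 (gene 12843, chromosome 6) stood at 100.2 and 101 FPKM in scrambled 1 and 2 and at 33.8 and 34.7 FPKM in knockdown 1 and 2, from 16846, 20601, 6954 and 6550 fragments. Both libraries labelled knockdown lay far below both labelled scrambled. The change was -1.53 on the log2 scale (SE 0.022, limma adjusted p = 0.00016), a 2.94-fold lower mean, with -1.54 in batch 1 and -1.51 in batch 2. Col1a1 (gene 12842, chromosome 11), whose product supplies the larger share of chains in the type I molecule, stood at 20.0 and 20.8 FPKM against 6.28 and 6.45 FPKM. Its groups were as far apart as those of Col1a2, with a log2 change of -1.54 (SE 0.028, limma adjusted p = 0.00016) and a 3.20-fold lower mean. The FPKM of Col1a2 was 5.0 and 4.85 times that of Col1a1 under the scrambled label and 5.37 and 5.37 times under the knockdown label. This ratio moved by 0.12 on the log2 scale, little beside the fall of either chain.

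Col3a1, the only chain of type III collagen, rose where type I fell. It stood at 2.65 and 2.62 FPKM under the scrambled label and at 3.39 and 3.42 FPKM under the knockdown label, from 474, 570, 744 and 688 fragments. The groups did not overlap, with a log2 change of 0.28 (SE 0.014, limma adjusted p = 0.00052), a 1.29-fold higher mean. The FPKM of Col3a1 over that of Col1a1 was 0.132 and 0.126 under the scrambled label and 0.539 and 0.529 under the knockdown label, a ratio chosen after the values were seen. In share of the collagen FPKM, Col3a1 went from 1.80% to 5.21%, mostly because the summed FPKM of all 36 chains was 2.24-fold lower.

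The chains of type V collagen, the minor fibrillar partner of type I, did not move together. Col5a1, the chain most type V molecules need, stood at 1.30 and 1.29 FPKM against 1.01 and 1.03 FPKM. It fell by 0.19 on the log2 scale (SE 0.013, limma adjusted p = 0.0013), but with each library centred on its median the change was -0.01 (adjusted p = 0.76), and it turned to 0.20 (adjusted p = 0.0014) once the trend on gene length was removed. Col5a2, the partner of Col5a1 in the common type V molecule, stood at 4.90 and 4.87 FPKM against 5.09 and 5.19 FPKM, and did not pass (log2 change 0.06, SE 0.017, adjusted p = 0.056). The FPKM of Col5a2 over that of Col5a1 was 3.76 and 3.78 under the scrambled label and 5.04 and 5.06 under the knockdown label, with a spread within each group far smaller than the step between them. That spread understates the error of the ratio. The fitted SE of Col5a1 and Col5a2, 0.013 and 0.017, lay below the errors of counting their fragments, 0.041 and 0.035.

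Col5a3, a rarer type V chain, had the largest relative difference of any chain with at least 100 fragments. It stood at 0.173 and 0.172 FPKM under the scrambled label and 1.53 and 1.59 FPKM under the knockdown label, from 34, 41, 369 and 351 fragments. That is a fragment ratio per unit of depth of 9.05, with an exact 95% interval of 7.13 to 11.6 that covers counting error only. Its mean over all 4 libraries, 0.865 FPKM, lay below the filter. In a fit chosen after the values were seen, with a filter at a mean of 0.1 FPKM and 0.1 added before the logarithm, its change was 2.61 (SE 0.031, limma adjusted p = 0.00022). Its FPKM went from 0.133 times that of Col5a1 under the scrambled label to 1.52 and 1.55 times under the knockdown label.

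Of the 5 fibrillar chains tested, 1 was called higher (Col3a1) and 3 lower (Col1a1, Col1a2 and Col5a1), beside 27.4% and 41.2% of all tested genes. The remaining fibrillar chains were scarce. Col27a1, which is expressed in cartilage and other tissues, had 32 and 37 fragments under the scrambled label and 22 and 20 under the knockdown label, a 1.74-fold lower ratio (95% interval 1.17 to 2.62). Col11a1, a chain of cartilage type XI collagen, had 4, 5, 10 and 11 fragments, a ratio of 2.20 whose interval of 0.966 to 5.45 includes no difference. These are the smallest whole numbers that fit the values, and the interval would be narrower if the true numbers were a multiple of them. Col11a2 had 5, 7, 10 and 7 fragments and Col2a1, the cartilage chain of type II, had 2, 1, 3 and 1, and neither could be told from no difference at this depth.

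The usual chains of type IV collagen were low, and 1 of them clearly rose. Col4a2 (gene 12827) stood at 1.46 and 1.45 FPKM under the scrambled label and 1.96 and 1.99 FPKM under the knockdown label, from 304, 365, 499 and 465 fragments. The groups did not overlap, and it rose by 0.28 on the log2 scale (SE 0.014, limma adjusted p = 0.00053), a 1.36-fold higher mean. Col4a1 (gene 12826), which shares its promoter region with Col4a2 in the sequences above, stood at 1.33 and 1.37 FPKM against 1.45 and 1.44 FPKM. Its change of 0.06 (SE 0.015) passed narrowly, at an adjusted p of 0.046. With the batch as a block it did not (adjusted p = 0.19), nor did it without any one of the libraries: the adjusted p was 0.26 without scrambled 1, 0.16 without scrambled 2, 0.17 without knockdown 1 and 0.14 without knockdown 2. Its fragment ratio was 1.07, with a counting interval of 0.960 to 1.19 that includes no difference.

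The balance of FPKM within the pair shifted. FPKM of Col4a2 was 1.10 and 1.06 times that of Col4a1 under the scrambled label and 1.35 and 1.38 times under the knockdown label, a step of 0.34 on the log2 scale. The spread of this ratio within each group understates its error. The fitted SE of Col4a1 and Col4a2, 0.015 and 0.014, lay below the errors of counting their fragments, 0.046 and 0.045. These genes overlap and may share reads, and the part of such sharing in the ratio was not tested. Of the type IV chains outside this pair, Col4a5, found in kidney, skin and smooth muscle basement membranes, had 50 and 102 fragments under the scrambled label and 103 and 55 under the knockdown label. Its FPKM of 0.237, 0.398, 0.398 and 0.232 was high in scrambled 2 and knockdown 1 and low in the other pair, so the batches had opposite differences, of 0.18 and -0.18 on the log2 scale. Col4a6 had 1, 2, 0 and 1 fragments and Col4a4 had 0, 0, 1 and 0. Thus 2 of 2 tested type IV chains were called higher, beside 27.4% of tested genes, and 1 of those calls rests on every library being kept.

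Among the other types, Col7a1 fell about as far as type I in fold of the mean, 3.25 against 2.94 for Col1a2 and 3.20 for Col1a1. Col7a1 (gene 12836, chromosome 9) encodes the only chain of type VII collagen, the anchoring fibril protein below skin epithelium, and stood at 7.11 and 7.13 FPKM under the scrambled label and at 2.16 and 2.22 FPKM under the knockdown label. These came from 2118, 2580, 789 and 742 fragments, and the groups were far apart. Its log2 change came to -1.35 (SE 0.017, limma adjusted p = 0.00016), a 3.25-fold lower mean, with -1.36 in batch 1 and -1.34 in batch 2. Of the 9 listed epithelial and mesothelial markers, Epcam, Cdh1, Upk3b and Wt1 were below 0.1 FPKM in every library, while Krt19 stood at 166 and 161 FPKM against 91.4 and 92.2 FPKM and the lower Krt7, Krt8 and Krt18 had higher means under the knockdown label. Their part in the fall of Col7a1 was not tested.

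Of the 6 type VI chains, which join into the beaded filaments around stromal cells, 1 was tested and rose, and the next most abundant pair passed only with a lower filter. Col6a1 stood at 2.27 and 2.25 FPKM against 3.00 and 3.05 FPKM, and it rose by 0.30 on the log2 scale (SE 0.015, limma adjusted p = 0.00049), a 1.34-fold higher mean. Col6a2, which lies below the filter, stood at 0.584 and 0.570 FPKM against 1.06 and 1.01 FPKM, with a fragment ratio of 1.80 (95% interval 1.54 to 2.11). Col6a3, the largest of the type VI chains, stood at 0.235 and 0.231 FPKM against 0.325 and 0.326 FPKM, with a fragment ratio of 1.40 (95% interval 1.15 to 1.70). Both passed upward in the fit with the lower filter (adjusted p = 0.00054 and 0.0032). FPKM of Col6a3 stayed near 0.103 to 0.108 times that of Col6a1 in all libraries, while Col6a2 over Col6a1 went from 0.257 and 0.253 to 0.352 and 0.331. The rarer type VI chains were scarce, with 10, 13, 18 and 15 fragments of Col6a4, and 1 fragment in all of each of Col6a5 and Col6a6, both from scrambled 2. The summed FPKM of the 6 type VI chains was 3.13 and 3.10 under the scrambled label and 4.44 and 4.44 under the knockdown label.

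Col16a1, a fibril-associated chain, was the third tested member of the other types and did not pass. It stood at 1.17 and 1.30 FPKM against 1.41 and 1.30 FPKM, and its change of 0.07 (SE 0.044, adjusted p = 0.25) was within the spread of the libraries labelled scrambled. So of the 3 tested chains of other types, 1 was called higher and 1 lower, beside 27.4% and 41.2% of tested genes.

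Col18a1, a basement membrane zone collagen whose end fragment is endostatin, stood at 0.910 and 0.900 FPKM against 0.643 and 0.654 FPKM, and Col8a1, a short-chain collagen of vessel walls and the cornea, at 0.377 and 0.380 against 0.615 and 0.643 FPKM. The fit with the lower filter called Col18a1 lower (-0.42, adjusted p = 0.00082) and Col8a1 higher (0.61, adjusted p = 0.00087). Col12a1, which coats type I fibrils, had 84 and 122 fragments under the scrambled label and 87 and 70 under the knockdown label and did not pass (-0.29, adjusted p = 0.077). In that fit 17 chains were tested, of which 8 were called higher and 5 lower, beside 28.1% and 37.1% of its 12152 genes. It adds to the earlier calls 5 chains, Col5a3, Col6a2, Col6a3 and Col8a1, all higher, and Col18a1, lower. Col4a5, Col5a2, Col12a1 and Col16a1 did not pass in it.

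The scarcest members can be given only by their fragments, in the smallest whole numbers that fit. Col17a1, the transmembrane collagen of hemidesmosomes, had 8 and 9 fragments under the scrambled label and 1 and 1 under the knockdown label, a 9.02-fold lower ratio with a wide interval of 2.14 to 80.5. Col9a3, a cartilage chain, had 6 and 6 against 13 and 17, a ratio of 2.36 (95% interval 1.17 to 5.05), and Col20a1 had 21 and 35 against 21 and 15, a 1.65-fold lower ratio (95% interval 1.07 to 2.58). Col8a2 had 4, 4, 3 and 1 fragments, Col28a1 had 2, 6, 6 and 1, and Col22a1 had 6, 3, 1 and 5. Col15a1 had 2, 0, 1 and 1, and Col14a1 had 0, 0, 4 and 1. Col23a1 and Col25a1 had 1 fragment each, in knockdown 2. Of the 26 chains below the filter, 9 had both libraries labelled knockdown above both labelled scrambled in FPKM, 7 had them below and 10 overlapped, where 26.2% and 17.6% of the 9450 genes below the filter had such groups. Listed chains without a row in the table (Col4a3, Col9a1, Col9a2, Col10a1, Col13a1, Col19a1, Col21a1, Col24a1 and Col26a1) are not analysed here.

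**Figure D2:**
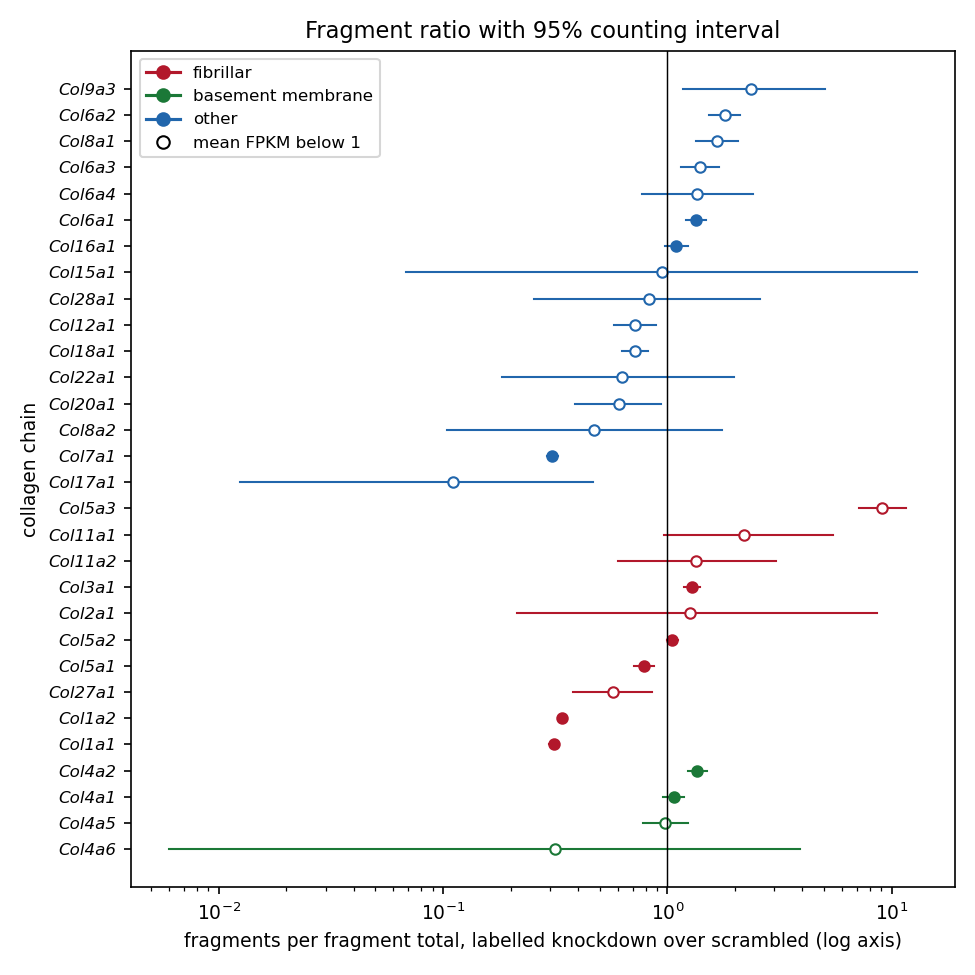
Ratio of fragments per fragment total, knockdown label over scrambled label, for the 30 chains with fragments under both labels, on a log axis with exact 95% counting intervals. Red, green and blue stand for fibrillar, type IV and other chains and open points for chains below a mean of 1 FPKM: the intervals of Col1a1, Col1a2, Col7a1 and Col17a1 lie well below 1 and that of Col5a3, from 7.13 to 11.6, well above.

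Summed over classes, the differences came from few chains. The FPKM of all 36 chains summed to 146 and 147 under the scrambled label and to 64.7 and 65.8 under the knockdown label, a 2.24-fold lower mean. For the fibrillar class the sums were 129 and 131 against 51.2 and 52.5, a 2.51-fold lower mean, but without type I they were 9.20 and 9.13 against 11.2 and 11.4, a 1.23-fold higher mean. For type IV the sums were 3.04 and 3.22 against 3.81 and 3.67, a log2 ratio of 0.26 that shrank to 0.08 without Col4a2. For the other types they were 13.2 and 13.3 against 9.69 and 9.65, and without Col7a1 they turned to 6.06 and 6.19 against 7.53 and 7.44. The groups did not overlap in any of these sums. The exact two-sided permutation test of 2 against 2 libraries gave p = 0.33 for each, the smallest it can give. The 33 chains apart from type I and Col7a1 summed to 18.3 and 18.5 against 22.5 and 22.5 FPKM, a 1.22-fold higher mean. The summed FPKM of all genes was itself higher under the knockdown label (701936 and 680137 against 598188 and 616504), and with each library scaled to the same total the type IV ratio came to 0.07. As a share of all FPKM, the 33 chains held 0.0306‰ and 0.0301‰ against 0.0321‰ and 0.0331‰. Fibrillar chains without type I held 0.0154‰ and 0.0148‰ against 0.0159‰ and 0.0167‰, and other types without Col7a1 held 0.0101‰ and 0.01‰ against 0.0107‰ and 0.0109‰. Their rises in share were thus smaller than those in summed FPKM.

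**Figure D3:**
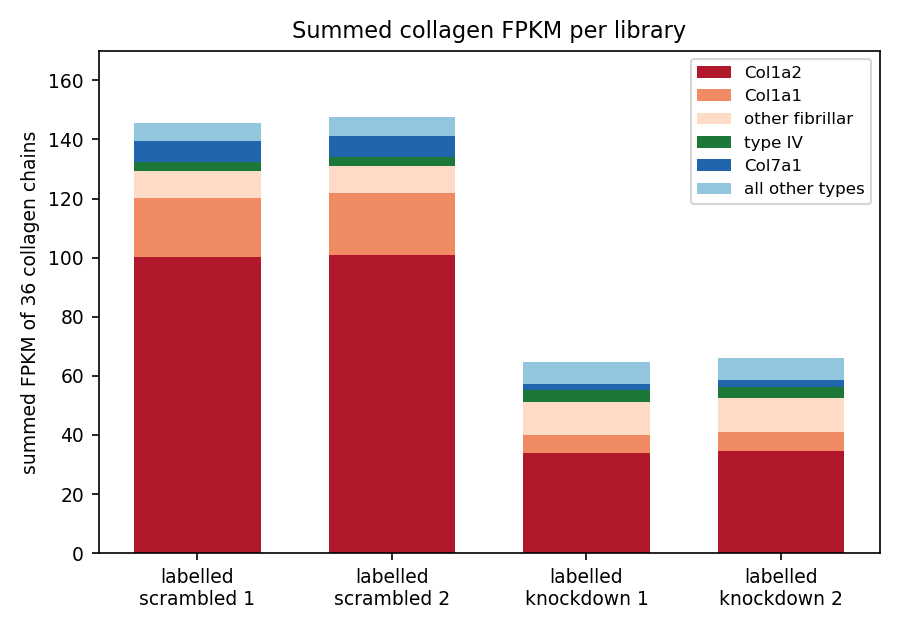
Summed FPKM of the 36 collagen chains in each library as bars from 0, stacked as Col1a2, Col1a1, the other fibrillar chains, type IV, Col7a1 and all other types. Bars of the scrambled label reach 146 and 147 and those of the knockdown label 64.7 and 65.8, and most of the gap is the dark red Col1a2 part.

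Collagen genes are long, and length went with the change across all genes. Over the 8750 tested genes (genes are no independent replicates), the log2 change and the recovered gene length had a Spearman rho of -0.39. The 10 tested collagens had a median length of 6412 bases, against 3096 for all tested genes, and the 2809 tested genes of 4000 to 10000 bases had a median change of -0.34. The median change of the tested collagens, 0.06, therefore lay above that of genes of like length. With the trend on length removed, Col1a1 and Col1a2 still fell, by 1.20 and 1.22 on the log2 scale, and Col7a1, at 9250 bases the longest tested chain, fell by 0.95. The same step moved Col3a1 to 0.60, Col4a2 to 0.63, Col6a1 to 0.54, Col4a1 to 0.41, Col5a2 to 0.42 and Col16a1 to 0.42, all called higher there, so that 7 chains were called higher and 3 lower. The part of RNA length or quality in these changes was not tested.

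**Figure D4:**
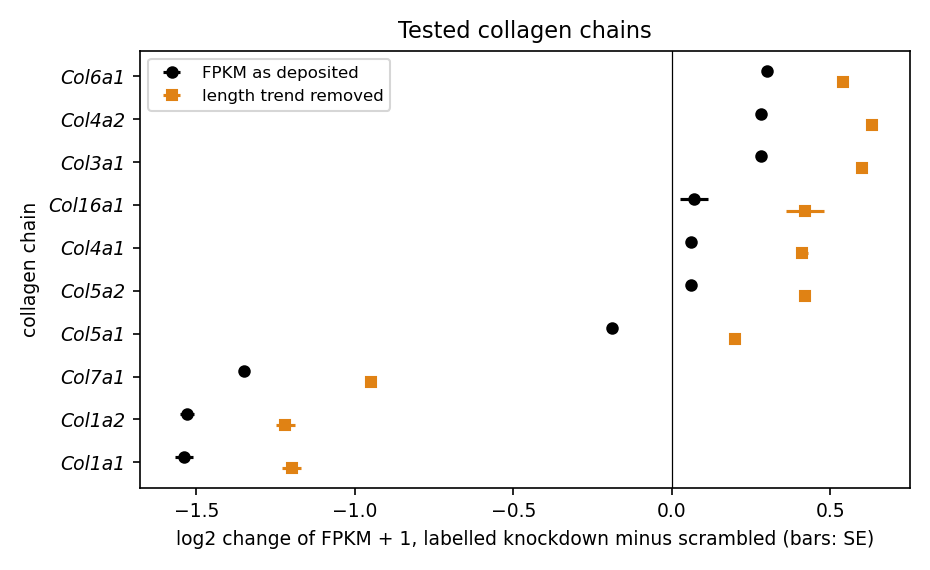
Log2 change of FPKM + 1 (knockdown label minus scrambled label) for each tested chain, as deposited in black circles and with the length trend removed in orange squares, with bars for the SE. Black circles of Col1a1, Col1a2 and Col7a1 lie between -1.54 and -1.35, those of the other 7 chains between -0.19 and 0.30, and every orange square lies to the right of its circle.

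**Figure D5:**
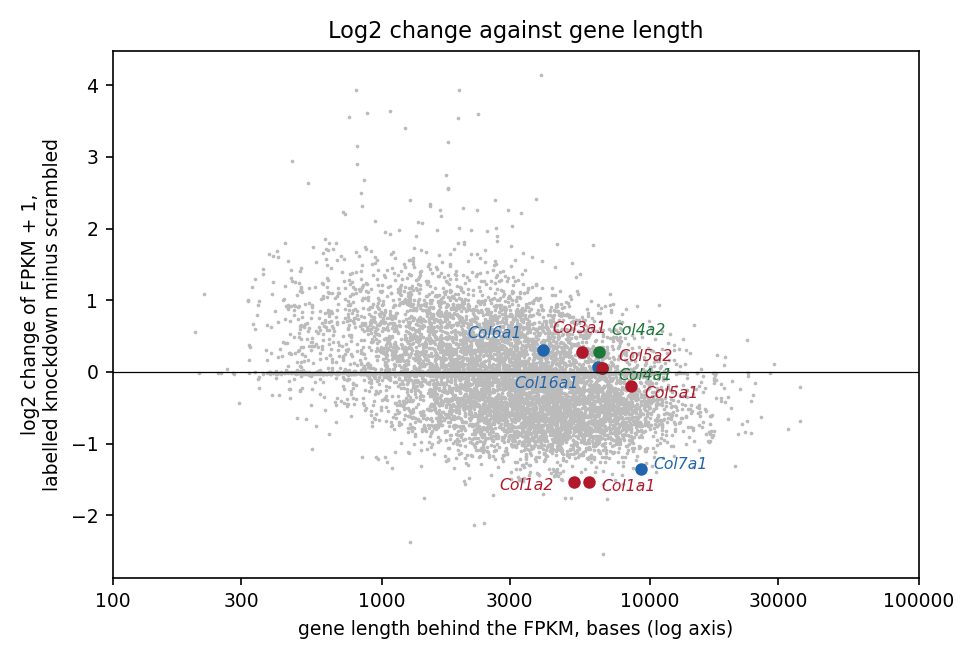
Log2 change of FPKM + 1 against the gene length behind the FPKM, in bases on a log axis, with a grey point for each tested gene and coloured, named points for the 10 tested collagen chains. Changes drift downward with length, and Col1a1, Col1a2 and Col7a1 lie at the lower edge of genes of their length while Col3a1, Col4a2 and Col6a1 lie above 0.

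Genes that modify, export, cross-link or bind collagen were counted in lists, with at most 3 genes named per list by smallest p. Of 15 tested genes for modification and folding, 6 were called higher, 1 lower and 8 did not pass, with a median log2 change of 0.11. Plod3 and Plod1, lysyl hydroxylases of the collagen helix, rose 2.33-fold (5.78 and 5.64 to 13.5 and 13.2 FPKM) and 2.19-fold (1.62 and 1.57 to 3.55 and 3.45 FPKM). Ppib, the prolyl isomerase that helps the helix fold, rose 1.52-fold, from 70.1 and 68.6 FPKM to 105 and 105 FPKM (limma adjusted p = 0.00016, 0.00017 and 0.00021).

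Of 10 tested genes for secretion and propeptide processing, 1 was called higher, 3 lower and 6 did not pass, with a median of -0.06. Those called lower were Sec24d, a coat protein of the vesicles that leave the endoplasmic reticulum (25.3 and 25.0 to 11.9 and 12.1 FPKM), Klhl12, a ubiquitin ligase adaptor that enlarges such vesicles for collagen (7.15 and 6.96 to 3.62 and 3.66 FPKM), and Creb3l1. Creb3l1 encodes a membrane-bound transcription factor that activates type I collagen genes in bone, and it fell from 28.6 and 29.3 FPKM to 14.0 and 14.5 FPKM, a 2.03-fold lower mean (limma adjusted p = 0.00018).

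Of 5 tested cross-linking genes, 1 was called higher and 2 lower, with a median of -0.02. Lox, the lysyl oxidase that starts cross-links in fibrils, fell from 11.9 and 11.8 FPKM to 5.59 and 5.72 FPKM (limma adjusted p = 0.00016). Its relative Loxl2 fell from 1.44 and 1.45 to 0.813 and 0.839 FPKM, while Loxl3 rose from 3.65 and 3.61 to 4.86 and 4.93 FPKM. Of 7 tested fibril-associated genes, 2 were called higher, 2 lower and 3 did not pass. Bgn, the small proteoglycan biglycan, rose 1.84-fold (20.5 and 19.8 to 37.5 and 36.8 FPKM), Fbln1 rose 3.19-fold (0.523 and 0.510 to 1.68 and 1.62 FPKM), and Thbs1, thrombospondin, fell from 11.6 and 11.5 to 8.84 and 9.01 FPKM. Dcn and Lum, fibril proteoglycans of many stromal cells, were scarce, with 0, 0, 5 and 6 fragments of Dcn and 0, 0, 0 and 1 of Lum in scrambled 1 and 2 and knockdown 1 and 2.

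Among the basement membrane partners of type IV collagen, Lamb1, a laminin chain, rose from 1.67 and 1.62 to 2.81 and 2.76 FPKM, and Lamb2, another laminin chain, did not pass (2.46, 3.53, 3.48 and 2.42 FPKM, adjusted p = 0.99). Of 4 tested collagen receptors, 3 were called higher: Mrc2, which takes up collagen fragments (2.26 and 2.20 to 4.99 and 4.86 FPKM), Cd44 and the integrin chain Itgb1. Both tested collagen-degrading proteases were called lower, Mmp2 from 5.53 and 5.60 to 3.54 and 3.66 FPKM and Mmp14, its membrane-bound activator, from 14.0 and 13.9 to 11.6 and 11.9 FPKM. Over these lists, 14 of 46 tested genes were called higher and 11 lower, beside 27.4% and 41.2% of all tested genes. Of the genes named, Fbln1 reached the filter only through the knockdown label, where it is high, and Loxl2 only through the scrambled label. The counts of these lists therefore carry no weight.

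A gene that did not pass was often not steady. Of the 21 genes of these lists that were not called, 15 differed between replicates by over 0.2 on the log2 scale in both groups and in opposite directions, the pattern of Lamb2 above. They include P4hb, a subunit of prolyl hydroxylase (17.2 and 23.3 FPKM in scrambled 1 and 2, 22.9 and 17.0 FPKM in knockdown 1 and 2), and Sparc, a collagen-binding glycoprotein (37.5, 55.7, 55.1 and 36.7 FPKM), both named after their values were seen. Among all tested genes 1631 of 8750 (18.6%) had this pattern, but 0 of the 10 tested collagen chains. Col4a5, below the filter, has the same order of libraries.

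In the replicates of the tested chains the opposite held: 8 of the 10 had a fitted standard error below the counting error of their own fragments. When standard errors were kept from going below counting error, Col4a1 lost its call (adjusted p = 0.39), and the calls of the other 7 chains stood. This limit was set in the main fit only, so the calls added by the fit with the lower filter were not held to it.

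Counts for the lists of cell type markers below stand beside the 27.4% of all tested genes called higher and 41.2% called lower. Of 10 mesenchymal stromal markers, 7 were tested, of which 6 were called higher and 1, Vim, lower. The list's summed FPKM, 1133 and 1126 under the scrambled label against 922 and 938, was almost all Vim (1087 and 1080.4 against 819.5 and 836 FPKM). Nt5e was near 0 under both labels, with 4, 2, 0 and 3 fragments, and Pdgfra had 1 and 3 fragments against 44 and 39. Runx2, the osteoblast transcription factor and the only tested gene of its list, fell from 2.35 and 2.30 to 0.662 and 0.675 FPKM. The mineralizing cell markers Sp7 and Alpl, and Phex of the same list, were below 0.1 FPKM. Sp7 had 9, 9, 3 and 2 fragments in scrambled 1 and 2 and knockdown 1 and 2. Alpl, with 0, 1, 13 and 7, went the other way. Phex, with 7, 9, 14 and 14, had a ratio of 1.65 whose counting interval of 0.862 to 3.26 includes no difference. Sox9, a chondrocyte transcription factor, was the only tested gene of its list (2.16 and 2.08 against 1.07 and 1.07 FPKM summed over the list) and was called lower, with Col2a1 and Comp under 0.1 FPKM. Of 3 adipocyte markers tested, 1 was called higher and 2 lower (list sums of 6.58 and 6.60 against 3.68 and 3.77 FPKM), and Plin1 was near 0. Of 3 smooth muscle and pericyte markers, 1 was called higher and 2 did not pass (926 and 805 against 655 and 759 FPKM, mostly Acta2), with Myh11 and Rgs5 near 0.

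Of 5 epithelial and mesothelial markers tested, 3 (Krt7, Krt8 and Krt18) were called higher, 1 (Krt19) was called lower and 1 (Msln) did not pass. The list sums of 169 and 165 against 102 and 103 FPKM were nearly all Krt19. The filter is on the mean over all libraries: Krt7, Krt8, Krt18, Eng, Lipe and Mcam reached it only through the knockdown label, where they are high, and Runx2 and Pparg only through the scrambled label, so the counts of these lists carry no weight. None of the endothelial or leukocyte markers reached the filter, and their sums were at most 0.0191 and 0.468 FPKM in any library. The part of cell composition or differentiation in the collagen changes was not tested.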

How the data were processed

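Polysome RNA of mouse ADSCs was measured in 4 libraries. The FPKM values were computed by the authors, and the name of the unit is given in the sample labels. Per the labels' protocols, messenger RNA was captured on beads before library construction. The submitters' processing notes name GRCm38, mm10 and GRCm39 without a role. Aligner, counting tool, annotation and strandedness: not given in the sources used here. All 4 columns were used and 0 left out.

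Relative depths were taken from the ratios of low values. Fragment totals were those at which gene lengths come out whole: 95.5% of 7323 genes with 100 to 3000 fragments had a length within 0.02 bases of a whole number, and fragments were recovered for 8693 of 8750 tested genes. The lengths are not those of single annotated transcripts for most genes (5.2% equal a GENCODE length). No strand or multiple-mapping rule is known, so chains that overlap other genes, such as the Col4a1 and Col4a2 pair, may share reads. Where no annotated length matched, the fragments given are the smallest whole numbers that fit the values and a whole length. The true numbers may be a whole multiple of them, with narrower intervals and smaller counting errors. Ratios of fragments carry exact 95% intervals, which cover counting error only.

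The labelled groups, 2 libraries each, were compared on log2(FPKM + 1) with limma 3.58.1 (R 4.3.3), using lmFit and a trended eBayes, for genes with a mean of at least 1 FPKM, two-sided, with Benjamini-Hochberg adjustment over all 8750 genes and a threshold of 0.05. The scripts were tested on simulated data. Python 3.11.15 with scipy 1.17.1 gave the permutation tests and intervals. The labels give same-numbered libraries a shared batch, so the numbers pair the libraries. Their replicate differences nevertheless correlated at r = -0.83 across 8750 genes.

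The members, classes and lists were chosen with earlier results of these data known. Every tested chain is named, those below the filter are given by fragments or FPKM, and up to 3 genes per pathway list are named by smallest p. A gene of the basement membrane list is not reported here. Names outside this rule are said to be chosen after their values were seen, apart from Dcn, Lum and the markers, which are named as absent or by count. Alternatives covered the pseudocount, filter, scaling, batch block, trend, counting error, gene length and each library left out. Promoter sequences are those of RefSeq (GRCm38.p6), and no coordinate is taken from the authors' table.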

Additional observations from a re-analysis of the deposited data

How the results depend on the processing

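Col1a1, Col1a2, Col3a1, Col4a2, Col6a1 and Col7a1 passed with the same sign in all 13 alternatives tried beside the crossed pairing. Col5a1 reversed to 0.20 with the length trend removed. With libraries centred on their medians, the median over all tested genes went from -0.02 to 0.15 and that of the collagen chains to 0.23. Beside the main 4 higher and 4 lower, chains called higher numbered 8 with no filter, 8 with the filter at 0.1 FPKM and a pseudocount of 0.1 (chosen after seeing the data) and 7 with the length trend removed, and those called lower 7 with no filter. Fibrillar chains called higher, 1 in the main test, numbered 3 with no filter, 3 with the length trend removed, and 2 after median-centring, after quantile normalization and with the 0.1 filter. Type IV chains called higher, 2 in the main test, numbered 1 with no filter, with the batch as a replicate block, without the trend, with the counting error floor, and without each library in turn (range 1 to 1). Chains of other types called higher, 1 in the main test, numbered 4 with no filter or the 0.1 filter and 2 after median-centring, quantile normalization or removal of the length trend, and those called lower 3 with no filter and 2 with the 0.1 filter. The median log2 change of the chains was 0.08 with a pseudocount of 0.1, 0.00 with no filter, 0.13 after quantile normalization, 0.42 with the length trend removed, 0.09 with the 0.1 filter and 0.04 to 0.06 without each library. The log2 ratio of summed FPKM, scaled to the same total, divided by the median of tested genes and without the most abundant chain, was -1.51, -1.13 and -0.74 for fibrillar chains, 0.07, 0.45 and 0.08 for type IV, and -0.64, -0.26 and a reversed 0.29 for the other types. The batch block changed no other call among the collagen chains. Because the replicate differences correlated negatively, a crossed pairing was added after seeing the data: with it 2962 genes were called higher and 4282 lower, against 2401 and 3608, with 2 fibrillar chains and 2 chains of other types called higher. The cause was not tested for any of these changes, except that the filters change which chains are tested and the sums without 1 chain leave it out. Depth limited the 9 chains with fewer than 10 recovered fragments, for which no difference could be read.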

Other observations

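The genes whose replicates differed in opposite directions in both groups, described above after their values were seen, had a particular order of libraries. Of these 1631 tested genes, 1292 (79.2%) had scrambled 1 within 0.1 of knockdown 2 and scrambled 2 within 0.1 of knockdown 1 on the log2(FPKM + 1) scale. They made up 1617 of the 2741 tested genes that were not called (59.0%), and 14 of them were called. Over all tested genes the median fitted standard error was 0.021, against a median counting error of 0.037. What produced these values was not tested.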
